A study of Mus musculus with 15 samples.

Results

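The genes described here encode 6 dual-specificity MAP kinase phosphatases (Dusp1, Dusp4, Dusp5, Dusp6, Dusp10 and Dusp16), out of 21887 protein-coding genes of the mouse. Heat shock factor 1 (HSF1) was mapped by chromatin immunoprecipitation and sequencing (ChIP-seq) in mouse brown fat (brown adipose tissue, BAT), which makes heat when the animal is cold. A peak was counted at a member when it overlapped the gene span in GRCm38 (mm10) or the 50 kb on either side. Peaks sharing at least 1 bp between libraries were joined into a region, which gave 33 regions at the members among 18176 in the series, holding 117 peaks. The genes were chosen because earlier readings of these same lists showed peaks near them. Their peak numbers, folds and ranks are therefore given as descriptions, with no test.

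The series has 15 samples, of which 10 are HSF1 libraries in 5 groups of 2 and 5 are input libraries not analysed here. The time course is wild type (WT) at room temperature (RT), WT after 40 min of cold stress (the first pair) and WT after 4 h of cold stress. A second comparison sets TXNIP KO at 40 min of cold stress against WT at 40 min of cold stress (the second pair, numbered 1.1 and 2.1). The labels give no strain, age, sex or allele, and do not say whether the replicates of a group are separate animals or whether both WT pairs at 40 min share tissue. Which WT pair was prepared with the TXNIP KO is also not stated. The deposited lists held 919 and 1269 peaks at RT, 2287 and 1670 at 40 min (first pair), 123 and 351 at 4 h, 10399 and 10633 in TXNIP KO, and 12644 and 14583 in the second WT pair. Read depth is unknown, because peak lists hold no counts. The fold enrichment of a peak is the authors' ratio of its signal to the local background, and it orders peaks within a list. As a scale, the shared promoter region of the mitochondrial chaperones Hspd1 and Hspe1 had folds of 194 and 193 at RT, 400 and 328 at 40 min (first pair), 53.6 and 117 at 4 h, 1148 and 1109 in TXNIP KO and 1296 and 1210 in the second WT pair. Within 1 kb of Txnip, the highest fold was 9.96 and 11.0 in TXNIP KO and 12.9 and 13.9 in the second WT pair. The labels do not give the deleted part, so these peaks do not check the knockout.

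Dual-specificity MAP kinase phosphatases switch off MAP kinases by removing phosphate from both the threonine and the tyrosine of the activation loop. DUSP1, DUSP4 and DUSP5 are nuclear enzymes whose genes are induced by growth factors or stress. DUSP6 is cytoplasmic and acts mainly on ERK, and DUSP10 and DUSP16 act mainly on the stress kinases JNK and p38. In brown adipocytes, p38 relays the signal from beta-adrenergic receptors and cyclic AMP to thermogenic genes. HSF1 binds as a trimer to heat shock elements, which are inverted repeats of the unit nGAAn.

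Promoter sequences were looked up in RefSeq (GRCm38.p6) for the 6 members, and 5 matched. The 250 bases before the start are printed for the 3 members whose promoter carried a searched motif or stood beside the region with the highest fold. They are given 5′ to 3′ along the gene, in lower case, and capitals mark a searched motif.
Dusp1, chr17:26508473-26508722, minus strand: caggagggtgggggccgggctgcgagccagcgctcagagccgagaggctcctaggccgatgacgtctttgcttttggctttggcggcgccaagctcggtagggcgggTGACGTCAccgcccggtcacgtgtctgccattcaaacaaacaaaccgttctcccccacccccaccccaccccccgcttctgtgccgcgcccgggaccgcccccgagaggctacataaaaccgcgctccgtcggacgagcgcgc
Dusp6, chr10:99262981-99263230, plus strand: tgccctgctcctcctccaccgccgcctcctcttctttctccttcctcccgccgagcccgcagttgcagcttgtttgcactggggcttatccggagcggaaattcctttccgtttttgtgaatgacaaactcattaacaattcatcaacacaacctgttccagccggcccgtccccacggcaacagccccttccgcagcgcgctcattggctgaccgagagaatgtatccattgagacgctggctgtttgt
Dusp16, chr6:134792629-134792878, minus strand: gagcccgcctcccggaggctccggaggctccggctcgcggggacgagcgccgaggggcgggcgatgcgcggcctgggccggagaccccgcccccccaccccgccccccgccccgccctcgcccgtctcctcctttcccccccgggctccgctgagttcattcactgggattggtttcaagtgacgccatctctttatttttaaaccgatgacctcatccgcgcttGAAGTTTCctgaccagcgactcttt
The motifs searched were GAANNTTC and TTCNNGAA, which each hold 2 facing units of a heat shock element, 3 units in alternating orientation, and TGACGTCA, the full cyclic AMP response element. Each of the spelled motifs is its own reverse complement, so both strands are covered, and the 3-unit element contains a 2-unit one. The Dusp16 promoter held 1 copy of GAANNTTC that begins 25 bases before the start. At that place, allowing 1 mismatch also gave a 3-unit match. The 2-unit motif was present in 12.8% of 32851 promoters of this length and the 3-unit motif with 1 mismatch in 6.08%. The exact 3-unit motif was present in none of the 5 member promoters and in 0.466% of all promoters. Dusp1 held TGACGTCA beginning 143 bases before the start, a motif present in 1.55% of promoters and searched only after the sequences had been seen. Dusp5, Dusp6 and Dusp10 held none of these motifs in this window. No sequence beyond the promoters was available, so HSF1 regions elsewhere were not searched. The search therefore does not show whether those regions hold a heat shock element.

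Of the 6 genes, 2 had a region called in both RT libraries (Dusp6 and Dusp16), against 7.74% of all protein-coding genes under the same rule. At 40 min (first pair) 3 did (Dusp4, Dusp6 and Dusp16), against 13.0% of all genes, and at 4 h 2 did (Dusp6 and Dusp16), against 1.28%. All 6 did in TXNIP KO, against 41.1% of all genes, and in the second WT pair, against 48.0%. With the strongest 123 peaks of each list, 1 member met the rule in TXNIP KO, 1 in the second WT pair, 1 at 40 min (first pair) and 1 at RT, and 2 at 4 h. At −log10 q of at least 5 the RT count was 1, and the counts in TXNIP KO and the second WT pair were 4 each. With a 10 kb window the count at 40 min (first pair) was 2. Since the members were chosen on these lists, nothing is read from the difference between those shares. The windows held 2 and 4 peaks at RT, 6 and 6 at 40 min (first pair), 2 and 3 at 4 h, 23 and 18 in TXNIP KO and 24 and 29 in the second WT pair. As a share of the list this was 0.218% and 0.315% at RT, 0.262% and 0.359% at 40 min (first pair), 1.63% and 0.855% at 4 h, 0.221% and 0.169% in TXNIP KO, and 0.190% and 0.199% in the second WT pair. The longest lists thus held the most peaks at the members, and the 4 h lists, the shortest, held the highest share.

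**Figure D1:**
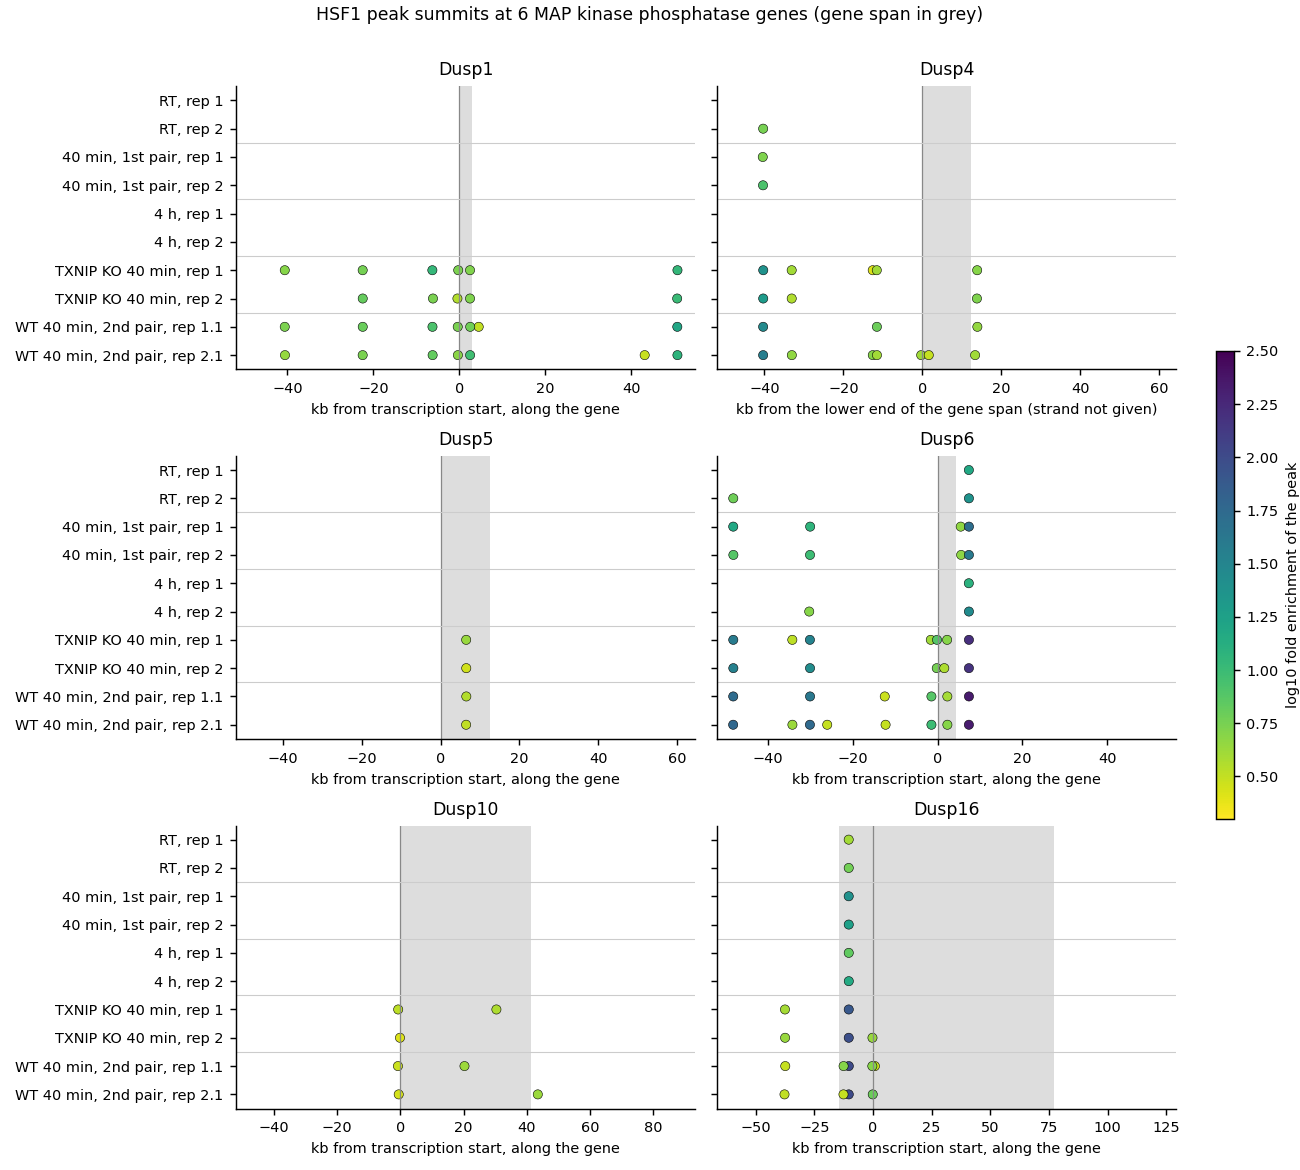
Summits of all 117 peaks in the windows of the 6 genes, with 1 row per library and 1 panel per gene; the x axis gives kb from the start along the gene (for Dusp4, from the lower end of its span), grey marks the gene span and colour the log10 fold of the peak. The columns of points at Dusp6 and Dusp16 run through all 10 libraries, while Dusp1, Dusp5 and Dusp10 have points in the TXNIP KO and second WT libraries only.

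Of the 33 regions, 22 were called in both libraries of at least 1 group, and 17 of these in TXNIP KO or the second WT pair only. A peak of an RT, first-pair 40 min or 4 h library was found in 5 regions, and these 5 were the ones present in at least 7 libraries. They lie at Dusp6 (3 regions), Dusp16 and Dusp4. Of the 26 regions at members with an annotated start, 4 had the summit of their strongest peak within 1 kb of it. The Dusp6 promoter region is not among them, though its strongest TXNIP KO peaks had summits closer than that. The 7 Dusp4 regions could not be placed against a start. Inside the member gene lay 10 of the 33. The member was the nearest protein-coding gene for 26 regions, and another gene was nearer for 7. Over the series, 18147 of 18176 regions had a peak in a TXNIP KO or second WT library. An RT or first-pair 40 min library had a peak in 2512 regions. The other counts were not made over the series, so nothing is read from them about these genes.

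Dusp6, the cytoplasmic ERK phosphatase, held the region with the highest folds at these genes. Its summit lies at chr10:99270606 in GRCm38, outside the gene, 3.12 kb past the 3′ end and 7.38 kb after the start. It was called in all 10 libraries, and the summits fell within 29 bp of each other. Its fold was 15.2 and 23.3 at RT, 52.2 and 40.4 at 40 min (first pair), and 12.4 and 27.8 at 4 h. Both 40 min values exceeded both RT values and both 4 h values, whereas the 4 h and RT values overlapped. In TXNIP KO the fold was 159 and 152, against 219 and 215 in the second WT pair.

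Higher folds at 40 min (first pair) than at RT were found at most regions called in both libraries of both groups. The mean fold of the Dusp6 region was 46.3 ± 8.37 at 40 min (first pair), against 19.3 ± 5.77 at RT (SD, n = 2 each), a ratio of 2.40. Among 750 regions called in all 4 of these libraries, 79.9% had both 40 min folds above both RT folds, and the median ratio was 1.56. At 4 h the mean was 20.1 ± 10.9 (SD, n = 2), and the ratio of 4 h over RT was 1.05, against a median ratio of 0.472 over 97 regions. Without replicate 2 of the 4 h group that ratio became 0.644. The ratio of 4 h over the first pair at 40 min was 0.435, and 0.268 without the same library, against a median of 0.349 over 104 regions, of which 89.4% had lower folds at 4 h without overlap.

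The region stood high in each list. By −log10 p it took place 102 and 71 at RT, 55 and 61 at 40 min (first pair), 22 and 15 at 4 h, 46 and 48 in TXNIP KO, and 43 and 47 in the second WT pair. The share of the list that was weaker was 88.9% and 94.4% at RT, 97.6% and 96.3% at 40 min (first pair), and 81.3% and 95.7% at 4 h. It was 99.6% and 99.5% in TXNIP KO and 99.7% and 99.7% in the second WT pair. As a percentage of the Hspd1 fold of the same library, its fold was 7.80 and 12.1 at RT, 13.0 and 12.3 at 40 min (first pair), 23.1 and 23.8 at 4 h, 13.9 and 13.7 in TXNIP KO and 16.9 and 17.8 in the second WT pair. Both 4 h libraries were thus the highest on that scale. The Hspd1 region itself took place 2 in both 4 h lists and place 1 in every other list. The scale was not worked out over the series, so nothing about Dusp6 alone is read from it. At 40 min (first pair) a weaker, separate peak lay between this summit and the gene, with folds of 4.59 and 4.73. In the TXNIP KO and second WT lists that position fell inside 1 wide peak of up to 3870 bp.

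Before the start of Dusp6, 2 further regions were called in 7 libraries each. The farther one has its summit at chr10:99215031, 48.2 kb before the start and 16957 bp from Poc1b, which is the nearest gene. Its fold was 6.08 in RT replicate 2 with no peak in replicate 1, 15.2 and 7.59 at 40 min (first pair), 39.2 and 35.0 in TXNIP KO and 53.3 and 58.1 in the second WT pair, and it had no peak at 4 h. The nearer one, at chr10:99233129 and 30.1 kb before the start, had no peak at RT and folds of 11.8 and 9.74 at 40 min (first pair). At 4 h it was called in replicate 2 alone, with a fold of 5.00, and its folds were 32.8 and 27.1 in TXNIP KO and 41.2 and 56.3 in the second WT pair. Both regions were therefore called in both libraries of every 40 min group and in at most 1 library at RT or 4 h. At 40 min (first pair) they stood mid-list or higher, with 82.7% and 47.4% of the list weaker than the farther region and 74.4% and 62.0% weaker than the nearer one.

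The remaining Dusp6 regions had peaks in the TXNIP KO and second WT lists only. One wide region covers the printed promoter, and the summits of its strongest peaks differed between the groups. In TXNIP KO the strongest peaks had summits 144 and 200 bp before the start, with folds of 7.68 and 5.73. In the second WT pair they lay 1455 and 1454 bp before the start, with folds of 7.57 and 9.78. Both second WT peaks and the peak of TXNIP KO replicate 2 covered the summit positions of both groups. The summits thus do not mark a site called in 1 group only. TXNIP KO replicate 1 also had a separate peak 1606 bp before the start, with a fold of 4.15. A region inside the gene had folds of 4.98 and 3.75 in TXNIP KO, against 3.98 and 4.97 in the second WT pair. The groups overlapped in both regions.

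**Figure D2:**
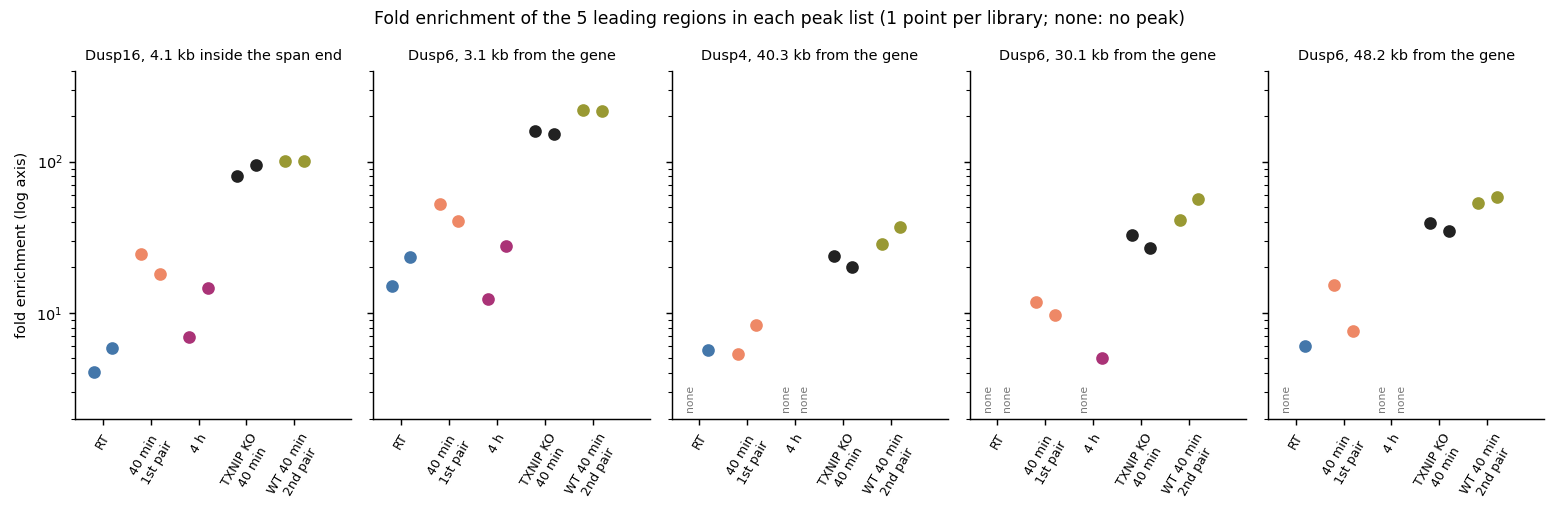
Fold enrichment (log axis) of the 5 regions called in at least 7 libraries, with 1 panel per region and 1 point per library. The word "none" marks a library with no peak. Groups run from RT to 4 h and then TXNIP KO and the second WT pair. In each panel both TXNIP KO points lie below both points of the second WT pair, and the Dusp16 and downstream Dusp6 regions have higher points at 40 min than at RT.

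Dusp16, a phosphatase of JNK and p38, held the other region called in all 10 libraries. Its summit lies at chr6:134802965, inside the annotated gene span, 4.10 kb from the upstream end of the span. It is 10.3 kb before the start used for the printed promoter. The span reaches 14.4 kb before that start, and the sequence at its upstream end was not searched. The summits fell within 45 bp. Its fold was 4.05 and 5.86 at RT, 24.6 and 18.1 at 40 min (first pair), 6.89 and 14.6 at 4 h, 80.1 and 94.4 in TXNIP KO and 102 and 101 in the second WT pair. No pair of time points overlapped: both 40 min values were highest, both RT values lowest, and both 4 h values between them. The mean fold was 21.4 ± 4.64 at 40 min (first pair), against 4.96 ± 1.28 at RT (SD, n = 2 each), a ratio of 4.31, where the median over the 750 shared regions was 1.56.

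At 4 h the mean fold of the Dusp16 region was 10.8 ± 5.48, against 4.96 ± 1.28 at RT (SD, n = 2 each). The ratio was 2.17, and 1.39 without 4 h replicate 2. Of the 97 regions called in all 4 of these libraries, 6, or 6.19%, had both 4 h folds above both RT folds, and this region was one of them, while 65 had both below. The ratio of 4 h over the first pair at 40 min was 0.504, and 0.322 without the same library.

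Within the lists the Dusp16 region was near the bottom in RT replicate 1 and near the top at 40 min. It took place 883 and 775 at RT, 159 and 219 at 40 min (first pair), 68 and 48 at 4 h, 155 and 110 in TXNIP KO and 143 and 148 in the second WT pair. The share of the list that was weaker was 2.94% and 36.6% at RT, 92.9% and 86.5% at 40 min (first pair), 41.5% and 85.8% at 4 h, 98.5% and 99.0% in TXNIP KO and 98.9% and 99.0% in the second WT pair. The 2 libraries at 4 h thus lay far apart on this scale, and their lists differ in length. As a percentage of the Hspd1 fold it was 2.08 and 3.04 at RT, 6.16 and 5.51 at 40 min (first pair), 12.8 and 12.5 at 4 h, 6.98 and 8.51 in TXNIP KO and 7.84 and 8.35 in the second WT pair.

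**Figure D3:**
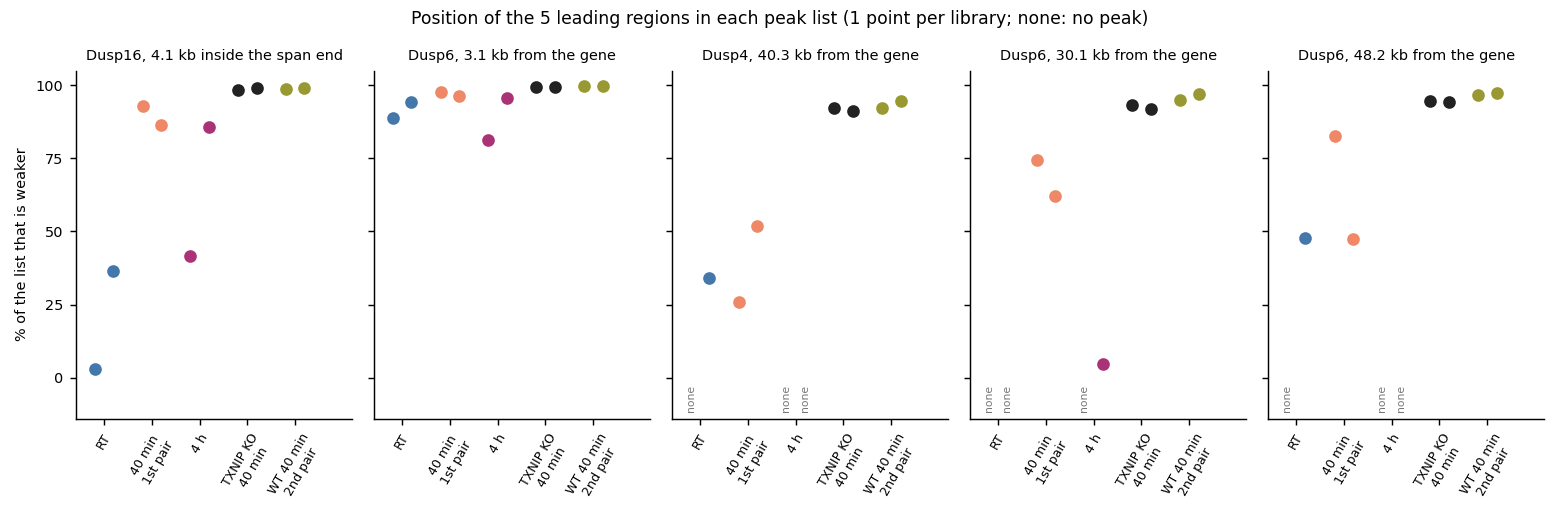
Percentage of the peak list that is weaker by −log10 p than each of the 5 regions, with 1 panel per region, 1 point per library and "none" where a library has no peak. The downstream Dusp6 region lies at 81.3% or above in every library, and the Dusp16 region lies at 92.9% and 86.5% at 40 min (first pair) against 2.94% and 36.6% at RT.

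Other Dusp16 regions were weak. One lies over the printed promoter, with its summit 0.114 kb before the start, and had a fold of 4.35 in TXNIP KO replicate 2, none in replicate 1, and folds of 4.98 and 6.17 in the second WT pair. A region at chr6:134830077 had folds of 3.94 and 4.35 in TXNIP KO, against 3.09 and 3.22 in the second WT pair. That summit lies 50 bp from Crebl2, a neighbouring gene in the window.

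List lengths differ widely, so the Dusp6 and Dusp16 regions were also placed among the 95 regions that every one of the 10 lists holds. Regions with no peak in a 4 h list, of which the shorter holds 123 peaks, are thereby left out. The places therefore compare only regions still called at 4 h. The Dusp6 region took places 54 and 48 at RT, 41 and 47 at 40 min (first pair), 17 and 15 at 4 h, 39 and 41 in TXNIP KO and 37 and 39 in the second WT pair, where place 1 is the strongest. The Dusp16 region took places 94 and 93 at RT, 66 and 75 at 40 min (first pair), 58 and 43 at 4 h, 65 and 60 in TXNIP KO and 65 and 63 in the second WT pair. Both regions therefore stood nearer the top at 40 min than at RT, and nearer still at 4 h, in both libraries of each group. Of the 95 regions, 20.0% did so for 40 min against RT, 31.6% for 4 h against RT and 32.6% for 4 h against 40 min. In TXNIP KO against the second WT pair 18.9% of the 95 did, and neither of these regions was among them.

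The size of the shift differed between the genes. The Dusp16 region stood 23 places higher at 40 min (first pair) than at RT, and of the 95 regions it was the only one to move up that far. For 4 h against RT it stood 43 places higher, a shift reached by 2 of the 95, itself included. The Dusp6 region stood 7 places higher at 40 min (first pair) than at RT, which 14 of the 95 reached, and 35 places higher at 4 h than at RT, which 6 reached. For 4 h against the first pair at 40 min the shifts were 20 places for Dusp16 and 28 for Dusp6, reached by 15 and 8 regions. A region near the last place can only move up, which applies to Dusp16 at RT, and artefact-prone regions were not removed from the 95.

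**Figure D4:**
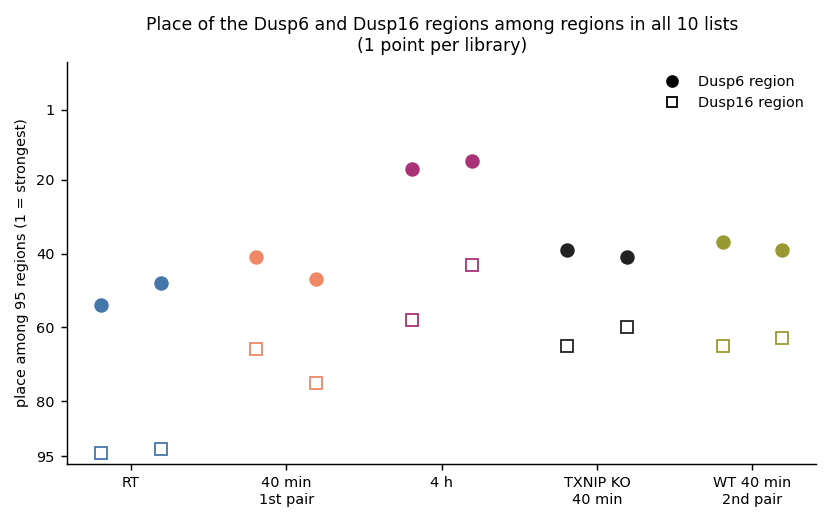
Place of the downstream Dusp6 region (filled circles) and of the Dusp16 region (open squares) among the 95 regions called in all 10 lists, with place 1 at the top and 1 point per library in 5 groups. Dusp6 lies at places 17 and 15 at 4 h against 54 and 48 at RT, and Dusp16 at 58 and 43 against 94 and 93.

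Dusp4, a nuclear phosphatase, had 1 region outside the gene that was called in 7 libraries. Its summit lies at chr8:34767286, 40.3 kb beyond the lower end of the gene span, and Dusp4 is the nearest gene. Its fold was 5.66 in RT replicate 2 with no peak in replicate 1, 5.32 and 8.35 at 40 min (first pair), 24.0 and 20.1 in TXNIP KO and 28.7 and 36.9 in the second WT pair. It had no peak at 4 h, and the RT value lay between both values of the first pair at 40 min. The share of the list that was weaker was 34.1% in RT replicate 2, 25.9% and 51.9% at 40 min (first pair), 92.2% and 91.3% in TXNIP KO and 92.4% and 94.6% in the second WT pair. The other 6 Dusp4 regions had folds of 2.55 to 6.17. One 33.1 kb from the gene had folds of 3.99 and 3.62 in TXNIP KO, against 4.63 in replicate 2.1 alone of the second WT pair. One 11.5 kb from the gene had a fold of 4.15 in replicate 1 alone of TXNIP KO, against 6.17 and 4.03 in the second WT pair. The one called in 4 libraries, 1.53 kb beyond the upper end of the gene, had folds of 4.98 and 5.33 in TXNIP KO, against 4.58 and 4.12 in the second WT pair.

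Dusp1, the nuclear phosphatase of p38, JNK and ERK and an immediate early gene, had 8 regions, as many as Dusp6, with 25 peaks, and all of these peaks were in the TXNIP KO and second WT lists. The region over the printed promoter with the TGACGTCA motif has its summit 0.371 kb before the start. Its fold was 5.39 and 3.56 in TXNIP KO, against 5.57 and 4.80 in the second WT pair, and 40.9% and 9.65% of the TXNIP KO lists and 49.4% and 43.1% of the second WT lists were weaker. This promoter thus ranked below the middle of all 4 lists. A region 6.28 kb before the start had folds of 10.8 and 5.53 in TXNIP KO, against 8.31 and 6.68 in the second WT pair. A region 22.5 kb before the start had folds of 5.80 and 6.61 in TXNIP KO, against 6.37 and 5.49 in the second WT pair, and the groups overlapped in both of these. A region inside the gene, 372 bp from its 3′ end, had folds of 5.19 and 5.33 in TXNIP KO, against 5.97 and 9.43 in the second WT pair. The highest folds in the Dusp1 window, 11.0 and 10.1 in TXNIP KO and 15.7 and 12.0 in the second WT pair, belonged to a region 47.9 kb past the 3′ end whose nearest gene is Neurl1b, 11.4 kb away.

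Dusp5, the nuclear phosphatase of ERK, had a single region, inside the gene and 6.50 kb after the start. Its fold was 4.34 and 2.89 in TXNIP KO, against 3.57 and 3.27 in the second WT pair, and it was called in no other library. Dusp10, a phosphatase of JNK and p38, had 1 region called in more than 1 library, with its summit 0.672 kb before the start and inside the overlapping gene 1700056E22Rik. Its fold was 3.32 and 2.58 in TXNIP KO, against 2.99 and 2.76 in the second WT pair. At most 2.74% of any of these 4 lists was weaker, so the Dusp10 region stood at the bottom of each list.

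Regions gained or lost between groups were counted as those called in both libraries of one group and neither of the other. For the first pair at 40 min against RT, 1 of the 5 member regions called in any of the 4 libraries was gained, the one 30.1 kb before Dusp6, against 15.9% of 2512 regions in the series. None was lost, against 0.199%, and 2 were in all 4 libraries. Without RT replicate 2 the gained count became 3, since that library held a peak in the 48.2 kb Dusp6 region and in the Dusp4 region. For 4 h against RT, none of 5 was gained and none lost, against 0.216% and 37.1% of 1390 regions. Without RT replicate 1 the lost count was 2, and without 4 h replicate 1 the gained count was 1. For 4 h against the first pair at 40 min, none was gained, against 0.0415% of 2409 regions, and 2 were lost, the 48.2 kb Dusp6 region and the Dusp4 region, against 46.9%. The lost count was 3 without 4 h replicate 2. With the strongest 123 peaks of each list, 0 were lost and 1 was gained, so nothing is read from these counts.

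TXNIP KO was compared with the second WT pair, whose lists are the closest to it in length. Of the 33 member regions, 16 were called in all 4 libraries, none was gained, against 1.1% of 18147 regions, and 2 were lost, against 7.36%. The lost regions were weak in WT: one 12.3 kb before Dusp6 had folds of 2.99 and 3.09, and one inside Dusp16 at chr6:134805160 had folds of 4.98 and 3.09. Cutting each list to its top 10399 peaks turned the direction, with 2 regions gained and 0 lost. At −log10 q of at least 5 the lost count was 0. Leaving out 1 library gave 3 to 7 lost regions, with 7 without WT replicate 1.1, 5 without WT replicate 2.1 and 4 without TXNIP KO replicate 1.

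At all 5 regions called in at least 7 libraries, both TXNIP KO folds lay below both folds of the second WT pair. The ratio of TXNIP KO over WT was 0.614 and 0.666 for the 30.1 kb and 48.2 kb Dusp6 regions, 0.672 for Dusp4, 0.717 for the downstream Dusp6 region and 0.862 for Dusp16. For the downstream Dusp6 region the means were 156 ± 5.26 in TXNIP KO and 217 ± 2.51 in WT, and for Dusp16 they were 87.3 ± 10.1 in TXNIP KO and 101 ± 0.364 in WT (SD, n = 2 each). Lower folds in TXNIP KO without overlap were common, found in 39.1% of 7131 regions shared by the 4 lists. Higher folds without overlap were found in 10.6%, and the median ratio over all 7131 was 0.892. These regions were not matched by fold to the 5 above. In the 95 regions of all 10 lists, the median fold was 133 and 134 in TXNIP KO. It was 155 and 163 in the second WT pair. Divided by that median, the downstream Dusp6 fold was 1.19 and 1.13 in TXNIP KO, against 1.41 and 1.32 in WT. The Dusp16 values overlapped between the groups on that scale. Of the 16 member regions in all 4 lists, 7 were lower in TXNIP KO without overlap, 2 were higher and 7 overlapped. The 2 higher ones were weak, the Dusp4 region 1.53 kb beyond the gene and the one beside Crebl2 at chr6:134830077. The Hspd1 fold was also lower in TXNIP KO, and as a percentage of it the Dusp16 values overlapped between the groups, while those of the other 4 regions stayed lower in TXNIP KO. The part of library or input differences in these ratios was not tested. The 28 other regions held 31 peaks in TXNIP KO and 43 in the second WT pair. The TXNIP KO lists are also shorter, with 10399 and 10633 peaks against 12644 and 14583, so nothing is read from these counts.

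Other genes of the pathway were counted in 5 lists of 53 genes, all of which matched by symbol. Their counts stand beside the same shares of all genes, 7.74% at RT, 13.0% at 40 min (first pair), 1.28% at 4 h, 41.1% in TXNIP KO and 48.0% in the second WT pair, and no test was made between them. The 4 other classical MAP kinase phosphatases had no region called in both libraries at RT, at 40 min (first pair) or at 4 h, 1 in TXNIP KO (Dusp2) and 2 in the second WT pair (Dusp2 and Dusp8). Of 13 small or atypical dual-specificity phosphatases, none had one at RT or 4 h, 2 did at 40 min (first pair), 6 in TXNIP KO and 7 in the second WT pair. The first-pair folds were 11.6 and 7.17 at Dusp11, an RNA phosphatase, and 7.01 and 6.68 at Styxl1, whose window shares its region with the nearer gene Por.

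Of 13 MAP kinases, 2 had a region in both libraries at RT, 4 at 40 min (first pair), 1 at 4 h, 7 in TXNIP KO and 10 in the second WT pair. Mapk6, an atypical MAP kinase, had folds of 6.20 and 5.66 at RT and 15.0 and 9.18 at 40 min (first pair). Mapk14, which encodes p38 alpha, had folds of 7.01 and 7.79 inside the gene at 40 min (first pair), and the neighbouring Mapk13, another p38 gene, had 7.97 and 6.96.

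Of 10 MAP kinase kinases and RAF kinases, 1 had a region in both libraries at RT and at 40 min in the first pair (Map2k5), none at 4 h, 5 in TXNIP KO and 6 in the second WT pair. The Map2k5 region lies 39.3 kb outside the gene and nearer to Skor1, with folds of 8.34 and 9.57 at RT and 18.0 and 9.83 at 40 min (first pair). The 13 other feedback inhibitors of RAS and ERK signalling, which include the Sprouty and Spred genes, had none at RT, 40 min in the first pair or 4 h, 8 in TXNIP KO and 9 in the second WT pair.

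The genes whose pattern over the 10 libraries was most like that of each member were found by the mean absolute difference in the share of the list weaker than the strongest peak in the window. For Dusp6 they were Hectd4 and Naa25, both at 0.893 percentage points, and for Dusp16 Actl6a and Mrpl47, both at 5.57 points. For Dusp4 they were Tmem131 at 2.29 and Tspan15 at 3.42 points, and for Dusp1 Auts2 at 0.410 and Nell1 at 0.432 points. For Dusp5 they were Arih2 at 1.34 and 1700001O22Rik at 1.58 points, and for Dusp10 Abcf2 and Chpf2, both at 0.350 points. Whether 2 genes with equal values share 1 region was not looked at. In TXNIP KO replicate 1 and both second WT libraries, the strongest Dusp10 peak lay in a region called in that library alone.

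The window of 50 kb decided a few memberships. The regions just inside it lay 48.2 kb (Dusp6, in 7 libraries, highest fold 58.1), 47.9 kb (Dusp1, in 4 libraries, highest fold 15.7) and 40.6 kb (Dusp1, in 3 libraries, highest fold 5.38) from the gene. Those just outside lay 53.8 kb from Dusp6 (in 4 libraries, highest fold 6.98), 54.3 kb from Dusp10 (in 3 libraries, highest fold 7.88) and 63.2 kb from Dusp1 (in 3 libraries, highest fold 5.61). No region just outside was as strong as the farther Dusp6 region inside.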

How the data were processed

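HSF1 ChIP-seq was done on BAT fixed with DSG and formaldehyde, per the labels' protocols. The submitters' processing notes name MACS2 2.2.7.1, BWA 0.7.17 and Trim Galore 0.6.0, besides deepTools 3.4.3 and SAMtools, with GRCm38.p6 (mm10) as build. Not given in the sources used here are read filters, the handling of duplicates and the input used for each list. The authors deposited 1 narrow peak list per library, with a fold (a linear ratio), the −log10 of the p-value and q-value, and the summit of each peak. Folds depend on depth and input, so they were used within a list and set side by side across lists only as descriptions. Depth per library is unknown. 1 input with conflicting title and treatment was assigned to no group.

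The members and lists were chosen with earlier results of these data known. Positions are 1-based on chromosomes 1 to 19, X and Y. Spans came from a RefSeq table of GRCm38 and promoters from a RefSeq table of GRCm38.p6. Ranks are by −log10 p, and the share weaker is that of the peaks in the same list. The naming rule took all 6 members, allowed each region called in both libraries of a group, and took the most recurrent region of each member, gained or lost regions, listed pathway genes with such a region at RT, first-pair 40 min or 4 h, and the 2 most alike genes per member. The values of 1 listed gene are not reported here. No test was made, since the members were chosen from these lists and the folds are not known to share an input or depth. Alternatives were windows of 10 and 100 kb, −log10 q of at least 5, 50% overlap, lists of equal length, the first WT pair as control, rank by fold, and leaving out each library. Scripts (Python 3.11.15, pandas 2.3.3, numpy 2.4.6, matplotlib 3.10.9) were tested on simulated data.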

Additional observations from a re-analysis of the deposited data

How the results depend on the processing

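Of the alternative values of the 14 counts, 84 stayed within 1.5 times and 26 did not. With equal list length (the strongest 123 peaks of each list), the members with a region in both libraries numbered 1 in TXNIP KO, 1 in the second WT pair, 1 at 40 min (first pair) and 1 at RT, and still 2 at 4 h. At −log10 q of at least 5 the RT count was 1, and the 2 regions lost in TXNIP KO became 0. At that cut-off the member counts in TXNIP KO and the second WT pair were 4 each. With a 10 kb window, regions gained at 40 min against RT numbered 0, those lost at 4 h against 40 min 0, and those lost in TXNIP KO 1. With a 100 kb window 1 region was gained in TXNIP KO. With 123 peaks per list, 1 was gained at 4 h against RT and 1 against 40 min, and 0 were lost at 4 h against 40 min. With 10399 peaks per list, TXNIP KO gained 2 and lost 0. With the first WT pair as control, whose lists are shorter, TXNIP KO gained 12 and lost 0. Leaving out each replicate gave 1 to 3 gained at 40 min against RT, 0 to 1 gained and 0 to 2 lost at 4 h against RT, and 0 to 1 gained and 3 to 7 lost in TXNIP KO. Allowing 1 mismatch, 1 promoter held a 3-unit element. An overlap of 50% moved none of the 13 counts of regions and genes by more than 1.5 times. Ranking by fold moved 15 of 61 positions, in the lists or among the 95 common regions, by more than the SD of the replicates. Where only 1 library of a group held the region, any shift was counted. The largest shift of a list position was 4.81 points. No paired analysis was possible because the results come from no test. Fold ratios without each library were added after seeing the data. Without counts, depth cannot be told apart from group in any comparison of list length.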
